A study of Mus musculus with 6 samples.

Results

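The microRNA silencing machinery was described here by 10 genes, taken by name from the 54532 genes of the deposited expression table. They were the 4 Argonaute genes Ago1, Ago2, Ago3 and Ago4, the 3 GW182 genes Tnrc6a, Tnrc6b and Tnrc6c, and the RNase III enzymes and partner Dicer1, Drosha and Dgcr8. All 10 were found, and all 10 reached the minimum for testing, which was 1 FPKM on average over the 6 libraries. Ago4 did so only narrowly, at 1.02 FPKM. FPKM is the number of fragments on a gene scaled by the length of the gene and by the depth of the library. In the libraries transfected with si-circRtn4, Ago1 fell to 64.7% of its si-NC level and Tnrc6b fell to 69.7%, and none of the other 8 genes passed the test.

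MicroRNAs are cut from primary transcripts in the nucleus by the Microprocessor, in which Drosha is the RNase III enzyme and Dgcr8 the RNA-binding partner. The hairpin is exported and cut by Dicer1 to a short duplex, of which one strand is kept in an Argonaute protein. The Argonaute pairs with mRNAs through the seed of this strand, and the GW182 proteins bind the Argonaute and recruit deadenylases and decapping factors to the mRNA. Ago2 is the Argonaute known to cut a fully paired target, which is the route by which a small interfering RNA (siRNA) removes its RNA. In neurons and neuroblastoma cells this machinery carries both the cell's own microRNAs and any siRNA that is transfected.

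The cells were N2a (Neuro2A), a line of mouse neuroblastoma cells, with the strain given as C57BL/6 in the labels. One group of 3 libraries came from N2a cells transfected with si-NC, a control siRNA, and the other group of 3 from N2a cells transfected with si-circRtn4, which is directed at circRtn4, a circular RNA made from exons of Rtn4. For N2a cells in general the study's methods give 100 nM siRNA, a change to differentiation medium with 10 μM retinoic acid after 24 h and harvest 48 h later, whereas the labels name only the growth medium. Both groups therefore held siRNA, and no library was from cells without it. The question was which genes changed when circRtn4 was knocked down.

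The recovered reads on genes numbered 13541198 to 15122063 per library, and 68 to 7581 of them lay on each of the 10 genes. Of 12 markers of sympathetic neuroblastoma cells, 11 had a mean of at least 1 FPKM. Their summed level was 2543 to 2795 FPKM with si-NC and 1102 to 1577 FPKM with si-circRtn4, and its part in the results below was not tested. Most of this difference was in Chgb, at 1167 to 1462 FPKM and 298 to 478 FPKM. Without Chgb the sums were 1295 to 1376 FPKM and 803 to 1099 FPKM, and the groups overlapped for 5 of the 11 markers, Tubb3, Hand2, Gata3, Isl1 and Stmn2. The marker lists of fibroblasts, of endothelial cells and of leukocytes, each summed separately, were at 0.301 to 1.38 FPKM in every library. The fibroblast list was at 0.301 to 0.503 FPKM with si-NC and 0.509 to 0.786 FPKM with si-circRtn4. Of the astrocyte and oligodendrocyte markers only Mbp had a mean above 1 FPKM, with Aqp4 listed at 0. In bulk RNA, fewer cells of one kind and less RNA per cell cannot be told apart, and the FPKM of a gene takes its linear and circular RNA together.

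The small RNAs that bear on the 10 genes are shown first. The sequence of miR-24-3p, the microRNA that the study follows together with circRtn4, is from RefSeq (GRCm38.p6), and that of si-circRtn4 is from the study's list of siRNAs, which gives 1 strand. The complementary strand was derived from it. The probe that the study lists for the capture of circRtn4 contains the complementary strand, so this is the strand that can pair with circRtn4. Which strand the Argonautes kept was not stated, so both were searched. Capitals mark the seed, bases 2 to 8 from the 5′ end.
miR-24-3p: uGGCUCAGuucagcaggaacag
si-circRtn4, listed strand: cTTCAGATgagaccctttt
si-circRtn4, complementary strand: aAAAGGGTctcatctgaag
The 7 bases that pair with these seeds are CTGAGCC for miR-24-3p, ATCTGAA for the listed strand and ACCCTTT for the complementary strand. The whole 19 bases were also compared position by position, without gaps, with the longest coding transcript of each gene. In this comparison the closest stretch in any of the 10 genes matched 14 bases, so each gene had at least 5 mismatches to either strand. Matches with a gap were not searched.

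Ago1 was the member with the largest change. Its level was 14.4, 14.1 and 14.7 FPKM with si-NC and 9.80, 8.18 and 10.0 FPKM with si-circRtn4. Thus each library with si-circRtn4 was lower than each with si-NC, with 1034 to 1770 reads behind each value. The means were 14.4 ± 0.272 and 9.33 ± 0.996 FPKM (SD, n = 3 each). On the log2(FPKM + 1) scale the difference was -0.58 (standard error 0.088, 95% interval -0.79 to -0.38), with a Benjamini-Hochberg adjusted p of 0.01005 in limma. The exact permutation test (two-sided) gave p = 0.1, which is the least that 3 against 3 can give. Ago1 stayed called in all 14 alternative fits, with an adjusted p of 0.00141 to 0.0435. This microRNA-loaded Argonaute is encoded on the minus strand of chromosome 4 (ENSMUSG00000041530, chr4:126435012-126468583 in GRCm38).

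**Figure D1:**
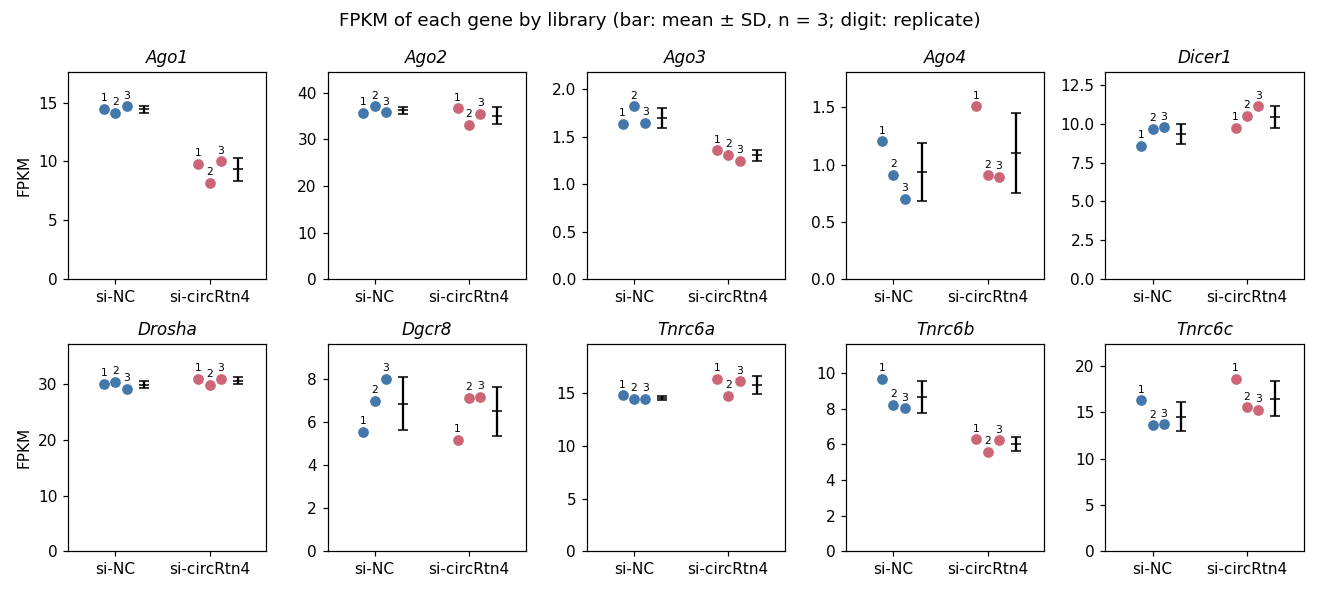
FPKM (y axis, from 0) of the 10 genes in the 3 si-NC (blue) and 3 si-circRtn4 (red) libraries, with the replicate number above each point and the mean ± SD (n = 3) beside it. The red points lie below all blue points for Ago1, Ago3 and Tnrc6b, and the groups overlap for the other 7 genes.

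Ago2, the slicing Argonaute, had by far the highest level of its family. It was at 35.8, 37.1 and 35.8 FPKM with si-NC and at 36.7, 33.2 and 35.5 FPKM with si-circRtn4. These ranges overlapped, and the mean of 36.25 ± 0.742 FPKM stood against 35.2 ± 1.79 FPKM (SD, n = 3 each). The log2 fold change of -0.044 had a 95% interval of -0.21 to 0.12 (adjusted p = 0.748 from limma), and after rescaling to TPM it was 0.047. A change of the size measured for Ago1 lies outside this interval. Ago2 lies on the minus strand of chromosome 15 (chr15:73095844-73184935), and its exons overlap those of Chrac1 on the other strand by 219 bases.

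Ago3 and Ago4 were near the lower limit of what was tested. Ago3 was at 1.64, 1.82 and 1.65 FPKM with si-NC and at 1.36, 1.31 and 1.25 FPKM with si-circRtn4. As with Ago1, the groups did not overlap and the si-circRtn4 values were the lower ones, but the log2 fold change of -0.23 (95% interval -0.49 to 0.034) did not pass the test (adjusted p = 0.253 in limma, and 0.0589 to 0.510 over the alternatives). The log2(FPKM + 1) scale understates changes at such low levels, and with a fit to the recovered reads by limma-voom the value was -0.36. Ago4 was at 1.202, 0.908 and 0.699 FPKM with si-NC and at 1.51, 0.906 and 0.891 FPKM with si-circRtn4, so that the groups overlapped. Only 68 to 149 reads stood behind each Ago4 value, and its 95% interval of -0.30 to 0.53 around 0.11 was the widest of the 10 genes.

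Summed over the 4 Argonautes, the level lay lower in each si-circRtn4 library. The summed level of the 4 genes was 53.1, 54.0 and 52.9 FPKM with si-NC and 49.4, 43.6 and 47.7 FPKM with si-circRtn4. No si-circRtn4 library reached the lowest si-NC library, and the si-circRtn4 mean was 88.0% of the si-NC mean. Ago1 made up 27.0% ± 0.798 of the sum with si-NC and 19.9% ± 1.10 with si-circRtn4 (SD, n = 3 each). The share of Ago2 went from 68.0% ± 0.681 to 75.02% ± 0.985 (SD, n = 3 each), without overlap. The ratio of Ago1 to Ago2, which does not depend on the scaling of a library, was 0.403, 0.381 and 0.409 with si-NC and 0.267, 0.246 and 0.281 with si-circRtn4. Each of these 4 differences had p = 0.1 in a two-sided exact permutation test, and 0.188 after Benjamini-Hochberg adjustment over the 15 sums, shares and ratios compared. All 4 include the Ago1 value, so they are not independent of its fall, and the level of Ago2 itself was not called.

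**Figure D2:**
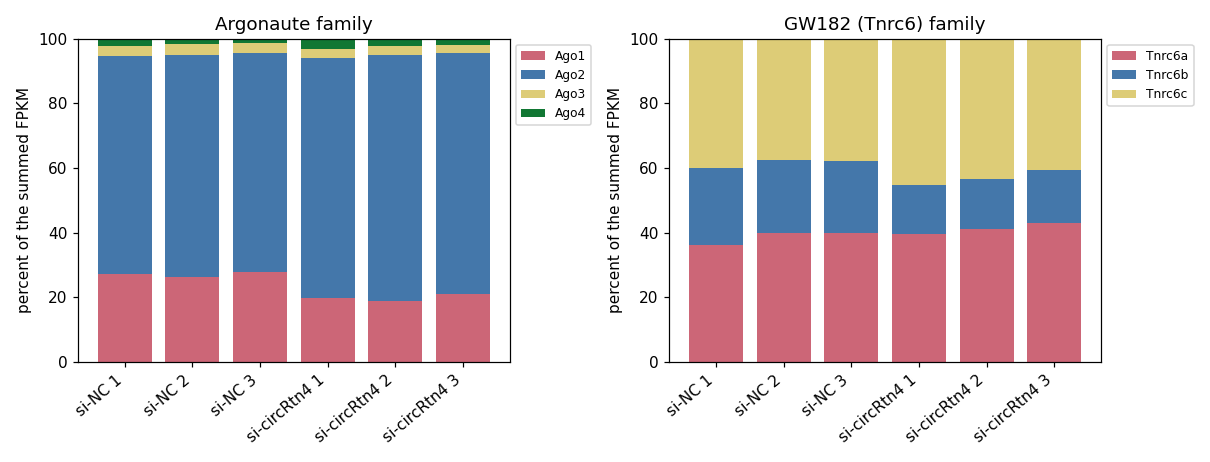
Share of each gene in the summed FPKM of the Argonaute family (left) and the GW182 family (right), in percent (y axis), with 1 stacked bar per library. The Ago1 segment is 26.2% to 27.7% with si-NC and 18.8% to 20.97% with si-circRtn4, and the Tnrc6b segment is 22.2% to 23.8% and 15.2% to 16.6%.

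In mouse, Ago3, Ago1 and Ago4 lie next to each other on the minus strand of chromosome 4, within 201769 bases (chr4:126331704-126533472). The gaps are 5455 bases between Ago3 and Ago1 and 20957 bases between Ago1 and Ago4, so the called gene lies between 2 genes that were not called. Of the 23 other genes within 200 kb of this cluster, 9 were tested and none passed limma, their log2 fold changes lying between -0.30 and 0.22 (adjusted p = 0.167 to 0.919). These neighbours were looked up after the Ago1 value had been seen. The lowest and the highest value were both on the side of Ago4. The lowest was that of 5730409E04Rik, whose groups did not overlap, with 2.81 ± 0.465 FPKM with si-NC and 2.08 ± 0.140 FPKM with si-circRtn4 (SD, n = 3 each), and the highest that of Clspn.

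Of the GW182 genes, whose proteins are the scaffolds that bring deadenylases to the Argonaute, Tnrc6b fell. Its values were 9.68, 8.22 and 8.02 FPKM with si-NC, against 6.28, 5.58 and 6.22 FPKM with si-circRtn4. The groups did not overlap, with means of 8.64 ± 0.908 and 6.02 ± 0.386 FPKM (SD, n = 3 each) and 2056 to 3460 reads behind each value. On the log2(FPKM + 1) scale the fall was -0.45 (95% interval -0.67 to -0.24, standard error 0.092, adjusted p = 0.0257 in limma), and the exact permutation test (two-sided) gave p = 0.1. The size was stable but the call was not. The log2 fold change lay between -0.51 and -0.37 over 14 alternatives, and the adjusted p between 0.00665 and 0.0881. The call was lost when si-NC replicate 1 (adjusted p = 0.0512 in limma) or 2 (0.0719) was left out, and when si-circRtn4 replicate 1 (0.0630), 2 (0.0881) or 3 (0.0598) was. It was also lost with TPM (0.0596) and when all detected genes were tested (0.0800). With TPM without Gm23935 it was kept (adjusted p = 0.0361 in limma).

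Tnrc6a and Tnrc6c were not called. Tnrc6a was at 14.8, 14.5 and 14.4 FPKM with si-NC and at 16.4, 14.7 and 16.1 FPKM with si-circRtn4, a log2 fold change of 0.10 (95% interval -0.060 to 0.27, adjusted p = 0.406 from limma). Tnrc6c was at 16.3, 13.6 and 13.7 FPKM with si-NC and at 18.6, 15.5 and 15.2 FPKM with si-circRtn4, a log2 fold change of 0.17 (95% interval -0.079 to 0.41, adjusted p = 0.372 from limma). The groups overlapped for each gene, and replicate 1 was the highest of its group for Tnrc6c in both groups. The summed level of the 3 genes was 37.7 ± 2.62 FPKM with si-NC and 38.2 ± 2.75 FPKM with si-circRtn4 (SD, n = 3 each). Within this sum Tnrc6b went from 22.9% ± 0.813 to 15.8% ± 0.695, and Tnrc6c from 38.4% ± 1.34 to 43.0% ± 2.30 (SD, n = 3 each), neither with overlap. The ratio of Tnrc6b to Tnrc6a was 0.655, 0.569 and 0.555 with si-NC and 0.384, 0.378 and 0.386 with si-circRtn4 (two-sided exact permutation test, p = 0.1, and 0.188 adjusted over the 15 comparisons). This ratio and both shares include the Tnrc6b value, so they are not independent of its fall.

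Dicer1, the enzyme that cuts precursor hairpins to duplexes, was at 8.60, 9.66 and 9.77 FPKM with si-NC and at 9.73, 10.5 and 11.1 FPKM with si-circRtn4. The lowest si-circRtn4 library lay just within the si-NC range. The log2 fold change was 0.15 (95% interval -0.046 to 0.34, adjusted p = 0.316 from limma). Within each replicate number, the si-circRtn4 level was 113%, 109% and 114% of the si-NC level.

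Neither Microprocessor gene was called. Drosha was at 30.0, 30.4 and 29.1 FPKM with si-NC and at 31.0, 29.9 and 31.0 FPKM with si-circRtn4, and its log2 fold change was 0.035 (95% interval -0.11 to 0.18, adjusted p = 0.785 from limma). Dgcr8 was at 5.55, 6.99 and 8.02 FPKM with si-NC and at 5.19, 7.15 and 7.17 FPKM with si-circRtn4, a log2 fold change of -0.066 (95% interval -0.42 to 0.29, adjusted p = 0.831 from limma). Replicate 1 had the lowest Dgcr8 value in both groups. The Dgcr8 value is also less certain than the others. Of the 50-base stretches of its longest coding transcript, 26.3% occur, read on either strand, in transcripts of other genes. For the other 9 genes this was 0% to 3.52%. The gene sharing the most stretches with Dgcr8 was Trmt2a, whose exons overlap those of Dgcr8 by 825 bases on the other strand. These points are therefore not independent, and whether the counting used strand was not given in the sources used here.

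**Figure D3:**
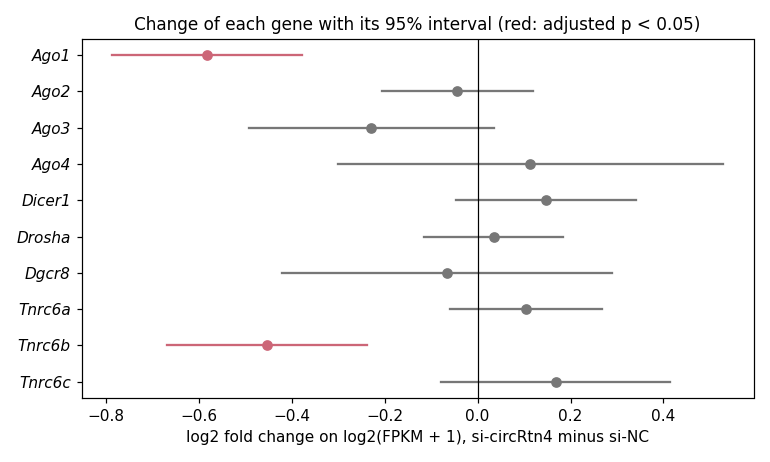
Log2 fold change of each gene on the log2(FPKM + 1) scale (x axis, si-circRtn4 minus si-NC), with lines for the 95% interval from limma and red for an adjusted p under 0.05. The intervals of Ago1 (-0.79 to -0.38) and Tnrc6b (-0.67 to -0.24) lie wholly below 0, and those of the other 8 genes include 0.

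The mRNA of Dgcr8 is itself known as a target of the Microprocessor, which cuts hairpins in it. RefSeq (GRCm38.p6) places miR-1306 and miR-3618 within exon sequence of Dgcr8 on the minus strand of chromosome 16. The 5p arms, at chr16:18284288-18284310 and chr16:18284602-18284623, are shown as the products of these hairpins, with the seed in capitals.
miR-1306-5p: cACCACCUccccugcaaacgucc
miR-3618-5p: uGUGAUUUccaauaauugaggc
The Mir1306 entry of the table was listed at 0 in all 6 libraries.

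With limma at an adjusted p under 0.05, 2 of the 10 genes were lower and 0 were higher in the si-circRtn4 libraries. Over the 12749 genes tested, 4.82% were lower and 4.36% were higher at this threshold, 9.19% in all. After rescaling to TPM, 400 genes were lower and 977 higher, against 615 and 556. At an unadjusted p under 0.05 the counts were again 2 lower and 0 higher, where 12.8% and 13.1% of all genes were. Limma-voom on the recovered reads also gave 2 and 0, against 5.69% and 7.08% of all genes, and so did limma with a block on replicate number, against 9.75% and 9.29%. The groups did not overlap for 3 of the 10 genes, against 31.7% of all genes tested. In these 3 the si-circRtn4 values were the lower ones, which held for 15.5% of all genes, and in 0 of the 10 they were the higher ones, against 16.2%. The median log2 fold change of the 10 genes was -0.0047, and that of all genes tested was 0.0020. The lower calls were 1 gene in each of the Argonaute and GW182 families.

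Over all 6 libraries, Ago2 (mean 35.7 FPKM) and Drosha (30.2 FPKM) were the most abundant of the 10 genes, above 88.1% and 85.2% of the genes tested. Their ranges were separate from each other and from those of the genes below them. Tnrc6c (15.5 FPKM), Tnrc6a (15.1 FPKM), Ago1 (11.9 FPKM), Dicer1 (9.90 FPKM), Tnrc6b (7.33 FPKM) and Dgcr8 (6.68 FPKM) followed, each overlapping the next. These means are over both groups, and the order turned between them for 3 neighbouring pairs. Tnrc6c and Tnrc6a were level with si-NC (14.5 and 14.6 FPKM), and Tnrc6c was the higher with si-circRtn4 (16.4 and 15.7 FPKM). Ago1 was above Dicer1 with si-NC (14.4 and 9.34 FPKM) and below it with si-circRtn4 (9.33 and 10.5 FPKM), and Tnrc6b was above Dgcr8 with si-NC (8.64 and 6.86 FPKM) and below it with si-circRtn4 (6.02 and 6.50 FPKM). Ago3 (1.503 FPKM) and Ago4 (1.02 FPKM) were lowest, overlapped each other and lay apart from the rest. Between genes these levels depend on the length used, since the deposited length is that of all exons of a gene joined. For Dicer1 it is 16750 bases, whereas its longest coding transcript has 9851. With reads per kilobase of the longest coding transcript, scaled to the recovered reads of the library, Drosha (39.98) came before Ago2 (37.0), and Dicer1 (17.1) before Ago1 (13.6). Tnrc6a (23.96) then also came before Tnrc6c (22.9), and Dgcr8 (12.1) before Tnrc6b (10.2). On this scale the ranges of Drosha (37.6 to 42.2) and Ago2 (34.7 to 39.2) overlapped.

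The 3′ UTRs of these genes differ in length, and the seed sites in them were counted in the coding transcript with the longest 3′ UTR of each gene in GENCODE M21. The 3′ UTR was 169 bases long in Drosha and 12742 bases in Ago3, with a median of 3767 bases over the 10 genes and of 1169 bases over the 10694 tested genes that have one. The site ACCCTTT, which pairs with the seed of the complementary strand of si-circRtn4, occurred in the 3′ UTR of 3 of the 10 genes, namely Ago1, Ago3 and Tnrc6b. These were also the 3 genes whose groups did not overlap, although Ago3 was not called. All 3 also hold the sites of the listed strand and of miR-24-3p in the 3′ UTR, as do Ago2 and Ago4, whose groups overlapped. Each ACCCTTT site is shown on its gene's strand with 10 bases on either side and the site in capitals.
Ago1, chr4:126437210-126437216, minus strand: gtgttccatcACCCTTTggggagggag
Ago3, chr4:126345198-126345204, minus strand: ttacagtctaACCCTTTtaatgccttt
Tnrc6b, chr15:80936307-80936313, plus strand: attacagttgACCCTTTtcccagtcag
Tnrc6b, chr15:80937986-80937992, plus strand: tgaactctgaACCCTTTcaagctcagg
Tnrc6b, chr15:80939559-80939565, plus strand: cccctactacACCCTTTgcacacacca
The site is common in long 3′ UTRs. It was in 12.5% of the 10694 genes and in 37.8% of the 876 genes with a 3′ UTR of at least 4000 bases, and 4 of the 10 genes (Ago1, Ago2, Ago3 and Tnrc6b) have one of that length. Ago2, with 11064 bases, was the 1 of these 4 that lacked it. The sites were searched with the levels known, and their part in the levels was not tested.

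The other sites were more widely shared among the 10 genes. The site ATCTGAA of the listed strand was in the 3′ UTR of 5 of the 10 genes, in Ago1, Ago2, Ago3, Ago4 and Tnrc6b, and in 13.2% of all those tested and 42.8% of those with at least 4000 bases. Tnrc6b held 4 of these sites and Ago2 held 2. The miR-24-3p site CTGAGCC was in the 3′ UTR of 6 of the 10 genes, against 19.6% of all those tested and 46.0% of those with at least 4000 bases. These 6 were Ago1, Ago2, Ago3, Ago4, Dicer1 and Tnrc6b, so that the called genes and 4 genes that were not called hold it. The part of these sites in the levels was not tested. Ago3, which was not called, also has a 3′ UTR site followed by A, and the sites of Ago2 and Ago4 are not followed by A. The sites of Ago1 and Tnrc6b, the called genes, and 1 of the 2 sites of Dicer1 are shown, all of them followed by A.
Ago1, chr4:126435595-126435601, minus strand: tgccttctccCTGAGCCacgagagagg
Tnrc6b, chr15:80934828-80934834, plus strand: ctctctgtgcCTGAGCCacacagttct
Dicer1, chr12:104690226-104690232, minus strand: tctcagcaggCTGAGCCagggtagctc
Drosha, Dgcr8, Tnrc6a and Tnrc6c had none of the 3 sites in the 3′ UTR. In the coding sequence of Drosha, a site ACCCTTT at chr15:12834134-12834140 follows 10 bases, cagatgagac, that also stand in the listed strand of si-circRtn4, and as given above the Drosha level hardly differed between the groups. Ago4 and Tnrc6c also hold 1 ACCCTTT site each in the coding sequence, and neither was called (log2 fold changes of 0.11 and 0.17). With coding sequence included, the site was thus in 6 of the 10 genes, of which 3 had groups that overlapped.

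Around the 10 genes, 96 genes of the same pathway were listed by step, and 77 of them were tested. In limma 2 of them rose and 3 fell (adjusted p under 0.05), against 4.36% and 4.82% of all genes. Their median log2 fold change was -0.026. With replicate number as a block, where 9.29% of all genes were higher and 9.75% lower, 6 were higher and 4 were lower, as Snd1, Limd1, Tob2, Mir22hg and Cnot6 were then called as well.

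Of the 11 genes for primary transcript processing and export, Ddx5 fell and 10 were not called (median -0.085). Ddx5, an RNA helicase that works with Drosha on a subset of primary transcripts, was at 330 ± 16.6 FPKM with si-NC and 250 ± 27.3 FPKM with si-circRtn4 (SD, n = 3 each). Its log2 fold change of -0.40 had an adjusted p of 0.0487 in limma, and 0.00961 to 0.159 over the alternatives. The call was lost without any 1 of the 6 libraries, with TPM and with all detected genes tested. Its relative Ddx17 had a log2 fold change of 0.12 (adjusted p = 0.350 in limma), and the exporter Xpo5 one of -0.085 (adjusted p = 0.776 in limma). Hnrnpa1, the most abundant of this list at 296 FPKM, was at -0.15 (adjusted p = 0.566 in limma).

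Of the 12 genes that act with Dicer1 or load the Argonaute, 0 were called in limma, in limma-voom or with the block. At an unadjusted p under 0.05, 1 was lower, against 12.8% of all genes, and the median log2 fold change was -0.048. The chaperone Hsp90ab1, the most abundant of all genes listed at 1704 FPKM, was at -0.026 (95% interval -0.22 to 0.17). The Dicer partners Tarbp2 and Prkra were at 0.030 and -0.13.

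Of the 15 tested Argonaute cofactors and turnover genes, Trim71 rose and 14 were not called (median 0.056). Trim71, an RNA-binding ubiquitin ligase known as a target of let-7, went from 6.06 ± 0.370 to 9.29 ± 0.893 FPKM (SD, n = 3 each). The log2 fold change of 0.54 had a standard error of 0.089 (adjusted p = 0.0129 in limma, and 0.00211 to 0.0583 over the alternatives), and the call was lost without si-NC replicate 2. Snd1, a nuclease found in silencing complexes and the most abundant of the list at 49.3 FPKM, was at 0.27 (adjusted p = 0.139 in limma, and 0.0309 with the block). Ajuba was below 1 FPKM.

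Of the 18 deadenylation genes, Cnot11 and Btg2 fell and 16 were not called (median -0.082). The groups did not overlap for 7 of the 18, against 31.7% of all genes. Cnot11, a subunit of the CCR4-NOT deadenylase that GW182 proteins recruit, was at 28.8 ± 0.609 FPKM with si-NC and 19.9 ± 1.67 FPKM with si-circRtn4 (SD, n = 3 each). This was a log2 fold change of -0.515 (adjusted p = 0.0106 in limma). Btg2, a growth-arrest protein that binds the deadenylase subunits, went from 10.95 ± 1.18 to 7.08 ± 0.441 FPKM (SD, n = 3 each), with a log2 fold change of -0.56 (adjusted p = 0.0135 in limma). Over the alternatives the highest adjusted p was 0.0514 for Cnot11, without si-NC replicate 2, and 0.0532 for Btg2, without si-circRtn4 replicate 2. Pabpc1, the poly(A)-binding protein and the most abundant of the list at 166 FPKM, was at 0.15 (adjusted p = 0.290 in limma). The scaffold subunit Cnot1 was at -0.15 (adjusted p = 0.321 in limma).

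Of the 13 decapping and decay genes, Lsm14b rose and 12 were not called (median 0.015). Lsm14b, a protein of cytoplasmic RNA granules, was also the most abundant of the list, and went from 30.1 ± 1.26 to 40.1 ± 2.09 FPKM (SD, n = 3 each). Its log2 fold change was 0.40 (adjusted p = 0.0180 in limma), with a highest adjusted p of 0.0634 over the alternatives. The call was lost when replicate 2 or 3 of si-NC, or replicate 1 or 3 of si-circRtn4, was left out. The decapping enzyme Dcp2 and the exonuclease Xrn1 were at -0.115 and 0.011, and neither was called.

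The 6 genes for tailing and trimming of microRNAs had 0 calls in limma, with 1 lower at an unadjusted p under 0.05 (12.8% of all genes), 1 lower in limma-voom (5.69% of all genes) and 0 with the block. Papd4, which adds adenosine to some microRNAs, was the most abundant of them at 18.7 FPKM. The uridylyl transferases Tut4 and Tut7 had values of opposite sign, 0.24 and -0.29 (adjusted p = 0.199 and 0.127 in limma). Of the 13 host transcripts of microRNAs only 2 were tested, and neither was called in limma or limma-voom. Mir17hg, at 5.95 FPKM, was at -0.011, and Mir22hg was at 0.49 (adjusted p = 0.0806 in limma, and 0.0296 with the block). The 7 genes of the Piwi pathway, the germline counterpart of the Argonautes, were all below 1 FPKM, at 0 to 0.378 FPKM.

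**Figure D4:**
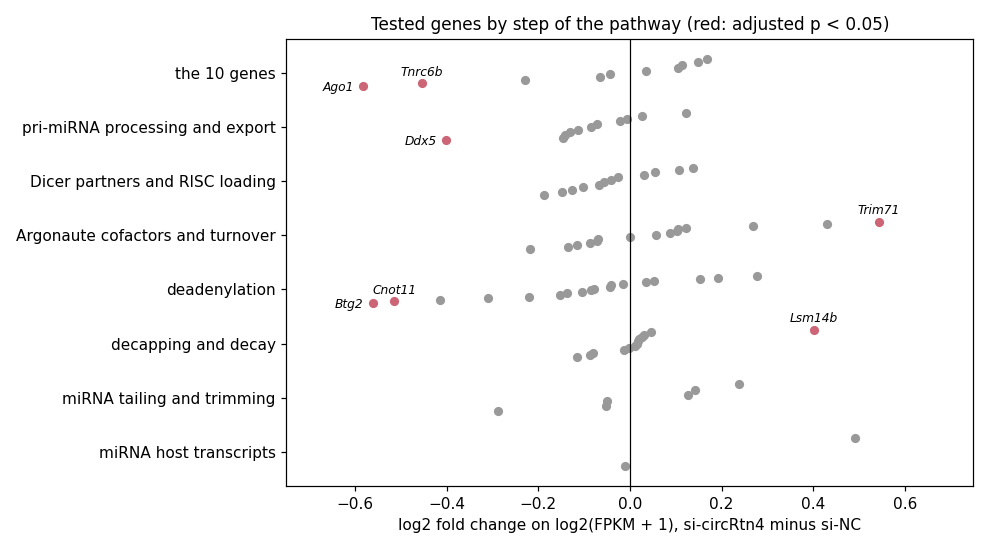
Log2 fold change on the log2(FPKM + 1) scale (x axis, si-circRtn4 minus si-NC) of the 10 genes and of the 77 tested genes listed by step of the pathway, 1 point per gene, spread vertically within a row for legibility only, with names and red for an adjusted p under 0.05 in limma. The called genes are Ago1, Tnrc6b, Ddx5, Cnot11 and Btg2, which were lower, and Trim71 and Lsm14b, which were higher.

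Among the other 12739 genes tested, the pattern over the 6 libraries closest to that of Ago1 by Pearson's r of log2(FPKM + 1) was that of Gucy1a1 (0.999), and Mtus2 (0.996) was also among the 3 closest. Such values are common with 6 libraries in 2 groups, since 259 genes had an r above 0.95 with Ago1. For Ago2, whose groups overlapped, the closest were BC052040 (0.992), Arid3b (0.988) and Gm6091 (0.981).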

How the data were processed

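RNA of 6 N2a libraries was sequenced, with 3 si-NC and 3 si-circRtn4 replicates, and groups and replicate numbers were taken from the sample titles. The authors deposited FPKM per gene with gene length and coordinates. The submitters' processing notes name Bowtie 0.12.2 and the builds mm8 and mm9 without a role, the counting tool was not given in the sources used here, and 98.1% of the listed genes have the start and end of GENCODE M21 (GRCm38), all 10 members included. The table's 6 columns of other samples were not used. FPKM multiplied by length gave whole multiples of 1 read for 100% of values in each library (within 0.01 of a read, or 0.01% above 100 reads), which gave the reads.

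Log2(FPKM + 1) was tested with limma 3.58.1 in R 4.3.3 (mean-variance trend, two-sided) for 12749 genes, those averaging 1 FPKM or more, with Benjamini-Hochberg adjustment over all of them and a threshold of 0.05. Alternatives were a pseudocount of 0.1, no filter, TPM with and without Gm23935, quantile normalization, limma-voom on the reads, replicate number as a block and leaving out each library. Limma-voom without Gm23935 in the totals and levels per longest transcript were added after the data had been seen. The ratios within families were not among the planned sums and shares. On simulated reads with 200 genes changed by a fold of 2, limma recovered 89.0% of them, and 6.32% of its calls were false. The simulation used a dispersion of 0.01 for every gene and no effect of replicate number. The falls of Ago1 and Tnrc6b were smaller than a fold of 2, so these rates do not describe their calls. The labels do not say that replicates were separate cultures, so p-values measure the spread between these samples, which may be technical. Libraries with the same replicate number deviated together from their group means (r = 0.331, 0.190 and 0.226, and at most 0.00913 between others), so the numbers were treated as pairs in the block; the pairing comes from this check alone.

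Members and gene lists were chosen with earlier results of these data known. Named were the 10 members, up to 4 called genes and the most abundant gene of each list, and the 3 genes most like the member with the largest change and the most abundant member, except 1 that is not reported here. Other genes named for their role, and the neighbours of the Argonaute cluster, were chosen after their values were seen. Python 3.11.15, numpy 2.4.6, pandas 2.3.3 and matplotlib 3.10.9 were used.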

Additional observations from a re-analysis of the deposited data

How the results depend on the processing

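The fall of Ago1 kept its direction and its call under all 14 alternatives, and the fall of Tnrc6b kept its direction under all 14 and its call under 7. The number of members called lower was 1 instead of 2 with no filter on low values and with TPM, and 1 to 2 when a library was left out, and the number called higher was 0 throughout. The sign of uncalled members changed for Ago2 with TPM (0.047), and for Dgcr8 with TPM (0.014), in the absence of si-NC replicate 3 (0.040) or of si-circRtn4 replicate 1 (0.067). Ago4 changed sign in the absence of si-circRtn4 replicate 1 (-0.020). With 1 library left out, Dgcr8 lay between -0.19 and 0.067 and Ago4 between -0.020 and 0.21. The block on replicate number gave 1185 higher and 1243 lower genes, against 556 and 615 without it, and 6 higher pathway genes. The block changed no call of a member, with an adjusted p of 0.00704 for Ago1 and 0.0141 for Tnrc6b. With no filter, 210 genes were higher and 261 lower. With TPM, 977 were higher and 400 lower, with 5 pathway genes higher. With TPM without Gm23935, 593 were higher and 541 lower. In that fit Tnrc6b stayed called (adjusted p = 0.0361 in limma) and Ago2 was at -0.023. Gm23935 held 20.1% to 20.7% of the summed FPKM with si-NC and 13.5% to 18.8% with si-circRtn4. In limma-voom 902 were higher and 725 lower, or 894 and 728 without Gm23935 in the totals, with 4 pathway genes higher and 5 lower in both. Leaving out 1 library gave 163 to 407 higher and 217 to 419 lower genes, and 0 to 2 higher and 1 to 3 lower pathway genes, and each lowest count was reached without si-NC replicate 2. The cause of these shifts was not tested. Depth limits Ago4, with 68 to 149 reads, and Ago3, with 300 to 435. The family sums and shares were recomputed only with TPM without Gm23935 and with each library left out, and there their differences between groups moved by less than 1 SD between replicates.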
